A study of Homo sapiens with 6 samples.

Results

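LAMA3, LAMB3, ITGA6 and ITGB1 were followed in JIMT-1 cells, 4 of the 758 genes measured. LAMA3 and LAMB3 encode the α3 and β3 chains of laminin-332, and ITGA6 and ITGB1 encode the α6 and β1 integrin subunits. The 4 genes were taken by name from the table and were selected on their normalized counts in aCT1-treated against control samples, which were already known, so that difference is described below and not tested. JIMT-1 is an established line of HER2+ breast cancer cells that do not respond to trastuzumab. Control cells (CTL, 3 samples) received the vehicle PBS, and treated cells (3 samples) received 250 µM aCT1 for 24 h. aCT1 is a cell-permeable, biotinylated peptide made from the C-terminal residues of the gap junction protein connexin 43, with antennapedia as its carrier. RNA was counted with the nCounter Breast Cancer 360 panel, in which a barcoded probe reports each gene. Nothing in the labels says that the 3 samples of a group came from separate cultures, so their spread may be technical.

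Laminin-332 is a heterotrimer of an α, a β and a γ chain that epithelial cells secrete into the basement membrane. Inside the cell the β and γ chains pair first and the α chain joins them, and a trimer is needed for secretion. Cells hold on to laminin-332 through integrins α3β1 and α6β4, while α6β1 is a receptor for several laminins, and in stratified epithelia α6β4 anchors hemidesmosomes. The β4 subunit (ITGB4) and the α3 subunit (ITGA3) were not analysed here. In bulk RNA, fewer cells that express a gene and less RNA per cell cannot be told apart.

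All 4 genes were measured well above the low end of the panel. The 299 genes left out of the comparisons, which are those the study did not analyse, had mean normalized counts of at most 37.3. In CTL, the LAMA3 probe averaged 1448 ± 43.5 normalized counts (SD, n = 3) and ranked 185 from the top among the 758 probes. The LAMB3 probe averaged 1621 ± 38.1 normalized counts (SD, n = 3), at rank 170. ITGA6 averaged 12269 ± 406 normalized counts (SD, n = 3), at rank 24, and ITGB1 17861 ± 361 (SD, n = 3), at rank 13. Probes differ in efficiency, so these ranks place each probe on the panel and do not order the amounts of the transcripts. Counts recovered from the normalized values, summed over the 758 genes, ran from 1437572 to 1494919 in the 6 samples. Each gene's own counts leave a counting error on its log2 difference between groups of 0.030 for LAMA3 and for LAMB3, 0.011 for ITGA6 and 0.0089 for ITGB1.

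The regions upstream of the gene starts are shown because LAMA3 differed between groups in the opposite direction to the other 3 genes. They are the 250 bases before an annotated start, from RefSeq on GRCh38.p14, written 5′ to 3′ along the gene's strand. All 4 genes matched the promoter table, with 8 windows in all, and for each gene the window with the most motif matches was printed, a choice made after they had been seen. Capitals mark AP-1 motifs (TGANTCA, which reads the same on both strands) and GC boxes (GGGCGG, or CCGCCC on the other strand), and no AP-1 match overlaps a GC box. The windows are LAMA3 at chr18:23872770-23873019 (plus strand), LAMB3 at chr1:209651375-209651624 (minus strand), ITGA6 at chr2:172427336-172427585 (plus strand) and ITGB1 at chr10:32958231-32958480 (minus strand).
LAMA3: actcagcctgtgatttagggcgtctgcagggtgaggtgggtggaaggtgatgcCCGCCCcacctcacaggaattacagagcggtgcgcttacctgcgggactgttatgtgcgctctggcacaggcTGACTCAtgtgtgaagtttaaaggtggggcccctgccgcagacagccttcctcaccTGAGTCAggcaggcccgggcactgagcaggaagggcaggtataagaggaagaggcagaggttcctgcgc
LAMB3: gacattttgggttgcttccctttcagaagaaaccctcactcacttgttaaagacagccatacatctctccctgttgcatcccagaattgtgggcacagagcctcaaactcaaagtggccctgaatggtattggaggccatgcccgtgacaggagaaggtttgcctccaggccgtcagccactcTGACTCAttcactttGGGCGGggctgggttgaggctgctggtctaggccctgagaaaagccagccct
ITGA6: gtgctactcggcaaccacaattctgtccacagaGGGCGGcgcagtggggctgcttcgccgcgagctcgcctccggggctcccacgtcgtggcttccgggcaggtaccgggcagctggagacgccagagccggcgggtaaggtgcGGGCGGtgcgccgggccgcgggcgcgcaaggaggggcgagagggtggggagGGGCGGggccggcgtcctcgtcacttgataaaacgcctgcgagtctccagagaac
ITGB1: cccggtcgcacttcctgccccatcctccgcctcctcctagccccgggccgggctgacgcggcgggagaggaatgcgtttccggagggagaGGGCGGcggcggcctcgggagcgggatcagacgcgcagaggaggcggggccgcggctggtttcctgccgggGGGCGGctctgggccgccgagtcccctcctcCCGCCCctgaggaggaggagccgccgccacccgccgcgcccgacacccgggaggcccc

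The LAMA3 window holds 2 AP-1 motifs, which begin 125 and 69 bases before the start, and 1 GC box. The LAMB3 window holds 1 AP-1 motif, beginning 67 bases before the start, followed by 1 GC box. The other LAMB3 windows and all windows of ITGA6 and ITGB1 hold no AP-1 motif, and the printed ITGA6 and ITGB1 windows hold 3 GC boxes each. Of the 35116 windows of this length in the table, 6.57% hold an AP-1 motif and 42.6% a GC box. Of all 8 windows of the 4 genes, 2 hold an AP-1 motif and 6 a GC box. The printed windows were picked for their matches, so the shares over all windows are no background for them. AP-1 motifs thus lie before both LAMA3, which was higher with aCT1, and LAMB3, which was lower, and GC boxes before all 4 genes. The matches describe letters only, and the measurements do not show which start the cells used. Whether the motifs have a part in the differences was not tested.

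LAMA3 was the only one of the 4 genes that was higher with aCT1. The CTL samples 1, 2 and 3 had 1479, 1468 and 1398 normalized counts, and the aCT1 samples had 1534, 1528 and 1663. Every aCT1 value lay above every CTL value, and aCT1 sample 3 stood highest. The aCT1 mean was 1575 ± 76.3 normalized counts (SD, n = 3), a log2 difference of 0.12 from CTL (standard error 0.046 in the limma fit) or 8.69% more. Without aCT1 sample 3 the log2 difference was 0.080. The gap between aCT1 samples 1 and 2 and the nearest CTL sample was smaller than the SD of the aCT1 group.

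LAMB3, the β chain of the trimer, was lower with aCT1. Its CTL samples had 1647, 1639 and 1577 normalized counts, and its aCT1 samples 1468, 1494 and 1499. The groups did not overlap, and the 3 aCT1 values lay within a narrow band. The aCT1 mean was 1487 ± 16.8 normalized counts (SD, n = 3). The log2 difference was -0.12 (standard error 0.031 in the limma fit), a change of -8.27%. The error that the 3 against 3 replicates alone give, 0.022, was below the counting error of 0.030.

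ITGA6, the α subunit shared by the α6β4 and α6β1 laminin receptors, was lower by a similar proportion. The CTL samples had 12144, 12723 and 11939 normalized counts, and the aCT1 samples 11303, 11442 and 11251. All aCT1 values lay below all CTL values, and CTL sample 2 was the highest of the 6. The aCT1 mean was 11332 ± 98.5 normalized counts (SD, n = 3), with a log2 difference of -0.11 (standard error 0.034 in the limma fit), a change of -7.60%. Without CTL sample 2 the log2 difference was -0.088. The CTL samples spread more widely than the aCT1 samples, with a coefficient of variation of 3.31% against 0.869%. With 11009 to 11482 recovered counts per aCT1 sample, counting alone gives more spread than 0.869%. The closeness of the aCT1 samples therefore does not measure precision.

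ITGB1, the β subunit common to many receptors for laminin, collagen and fibronectin, showed the smallest difference of the 4. Its CTL samples had 17810, 18245 and 17528 normalized counts, and its aCT1 samples 16918, 17318 and 16903. The groups did not overlap, but the gap between aCT1 sample 2 and the lowest CTL sample was smaller than the SD of either group. The aCT1 mean was 17046 ± 235 normalized counts (SD, n = 3). The log2 difference was -0.067 (standard error 0.030 in the limma fit), a change of -4.55%.

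**Figure D1:**
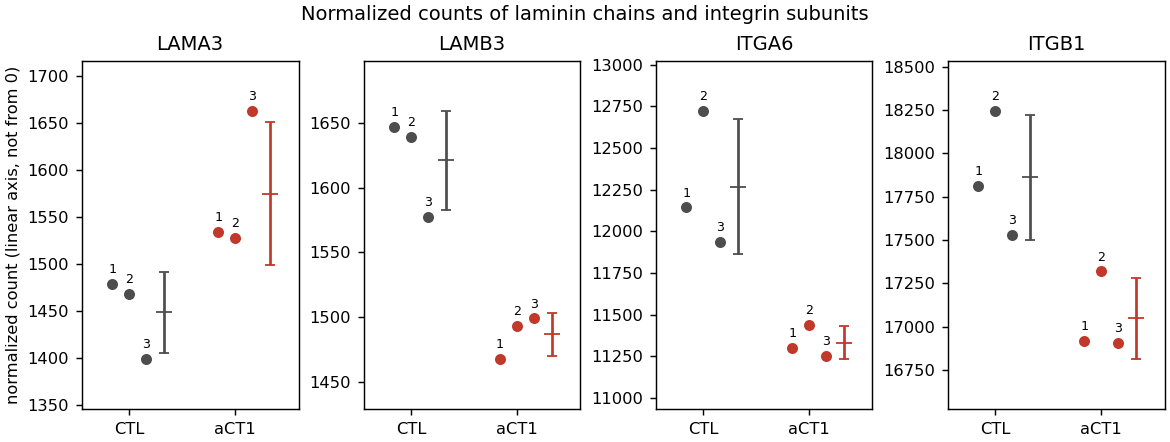
Normalized counts (vertical axes, linear and not starting at 0) of LAMA3, LAMB3, ITGA6 and ITGB1 in each CTL and aCT1 sample, numbered as in the labels, with the mean and SD of each group of 3 beside the points. LAMA3 lies higher in the 3 aCT1 samples (1528 to 1663) than in the 3 CTL samples (1398 to 1479), and each of the other 3 genes lies lower.

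The 2 groups did not overlap in 4 of 4 genes, 1 higher and 3 lower in aCT1. Over the 459 genes tested the groups did not overlap in 17.9%, higher in 12.4% and lower in 5.45%. Because the genes were chosen with this contrast in view, nothing is read from their count. The median log2 difference of all genes tested was 0.014, and 277 of them (60.3%) were higher in aCT1. The 10th and 90th percentiles were -0.081 and 0.12. LAMB3 ranked 20 from the lowest difference, ITGA6 22 and ITGB1 64, and LAMA3 ranked 45 from the highest.

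**Figure D2:**
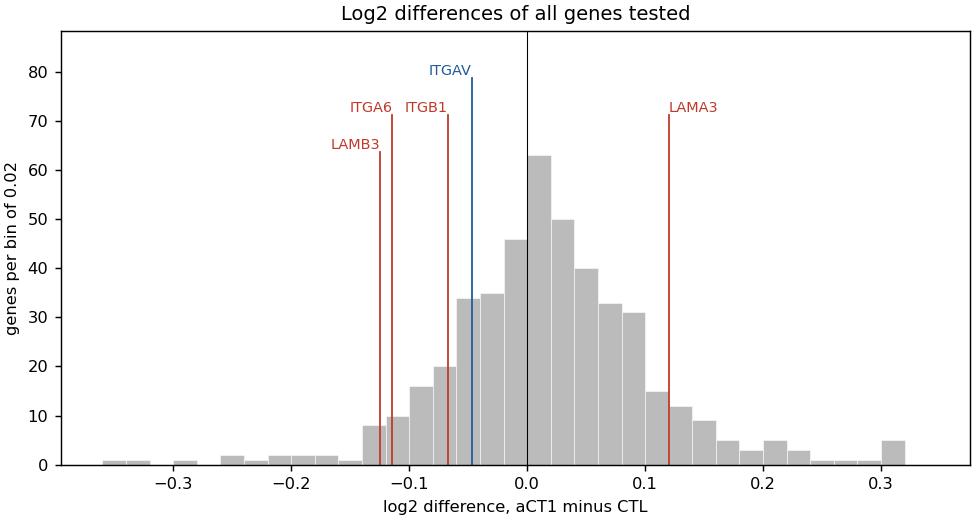
Histogram of the log2 difference (aCT1 minus CTL, horizontal axis) of the 459 genes tested, as genes per bin of 0.02. Red lines mark the 4 chosen genes and the blue line ITGAV. LAMB3 (-0.12) and ITGA6 (-0.11) lie below the 10th percentile of -0.081, and LAMA3 (0.12) lies near the 90th percentile.

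The 4 genes differed in their spread within groups. Genes chosen for a difference between groups can be those of small spread, so the spread is a description too. The pooled SD within groups on the log2 scale was 0.058 for LAMA3, 0.027 for LAMB3, 0.035 for ITGA6 and 0.025 for ITGB1. The median for the 233 genes tested with a mean of at least 1000 normalized counts was 0.038. Counting error is part of each SD and is larger at fewer counts, and those genes include some with far more counts than LAMA3. How much of the SD of LAMA3 is counting error was not separated. LAMA3 varied most of the 4, with 185 of those 233 genes having a smaller SD, against 55 for LAMB3, 100 for ITGA6 and 37 for ITGB1.

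A ratio of 2 probes within a sample does not depend on the housekeeping factor of that sample. The ratio of LAMA3 to LAMB3 counts was 0.898, 0.895 and 0.887 in the CTL samples and 1.05, 1.02 and 1.11 in the aCT1 samples. The CTL samples were almost alike and every aCT1 sample lay above them, with aCT1 sample 3 the farthest. The log2 ratio was higher in aCT1 by 0.24 (standard error 0.035), or 1.18-fold, and the smallest distance between a CTL and an aCT1 sample was 0.19 on the log2 scale. This standard error comes from the replicates alone. The counting errors of both genes, 0.030 each, enter the ratio, and combined they exceed that standard error. Those counting errors are for a difference of group means, and the counting error of 1 sample is larger. The SD of the single CTL log2 ratios, 0.0096, was below even the smaller measure. The closeness of the CTL samples therefore does not measure precision.

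The α6 probe was lower by a larger proportion than the β1 probe. The ratio of ITGA6 to ITGB1 counts was 0.682, 0.697 and 0.681 in the CTL samples and 0.668, 0.661 and 0.666 in the aCT1 samples. All aCT1 values lay below all CTL values by a small margin, with a log2 difference of -0.047 (standard error 0.012), or 0.968-fold. That standard error comes from the replicates alone. The counting errors of both genes, 0.011 and 0.0089, enter the ratio, and combined they exceed it. Under quantile normalization the log2 difference of this ratio was -0.0063. These ratios contain genes chosen for their difference and are given without a test.

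Of the 459 genes tested, 52 (11.3%) had an unadjusted limma p under 0.05, 36 higher (7.84%) and 16 lower (3.49%) in aCT1, and 0 (0.0%) had an adjusted limma p under 0.05. Without aCT1 sample 2 the genes with an unadjusted limma p under 0.05 were 18 higher and 19 lower, without CTL sample 1 they were 23 higher and 12 lower, and without aCT1 sample 1 they were 31 higher and 10 lower. ITGAV, the αV subunit of receptors for vitronectin and fibronectin, was the only other integrin subunit among the genes tested. It averaged 3282 ± 57.2 normalized counts in CTL and 3177 ± 79.7 in aCT1 (SD, n = 3 each), with a log2 difference of -0.047 and an unadjusted limma p of 0.20. Its groups overlapped. The ratio of ITGA6 to ITGAV counts was 3.73, 3.80 and 3.68 in the CTL samples and 3.63, 3.50 and 3.57 in the aCT1 samples, without overlap, and its log2 difference was -0.067 (standard error 0.020). The ratio of ITGB1 to ITGAV was 5.48, 5.45 and 5.40 in CTL and 5.43, 5.30 and 5.36 in aCT1, which overlapped, with a log2 difference of -0.020 (standard error 0.012). The standard errors of both ratios come from the replicates alone and were below the counting error of ITGAV by itself, 0.021. ITGB3 and ITGB6, the β3 and β6 partners of αV, had CTL means of 20.2 and 32.8 normalized counts and were among the genes left out for few counts. Across the 6 samples, ITGA6 and ITGB1 log2 values had a Pearson correlation of 0.98, and 0.93 after the group means were subtracted. For ITGB1 and ITGAV the correlations were 0.92 and 0.89. All 3 genes were measured in the same 6 samples with the same factors, and these correlations are a description of 6 points.

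**Figure D3:**
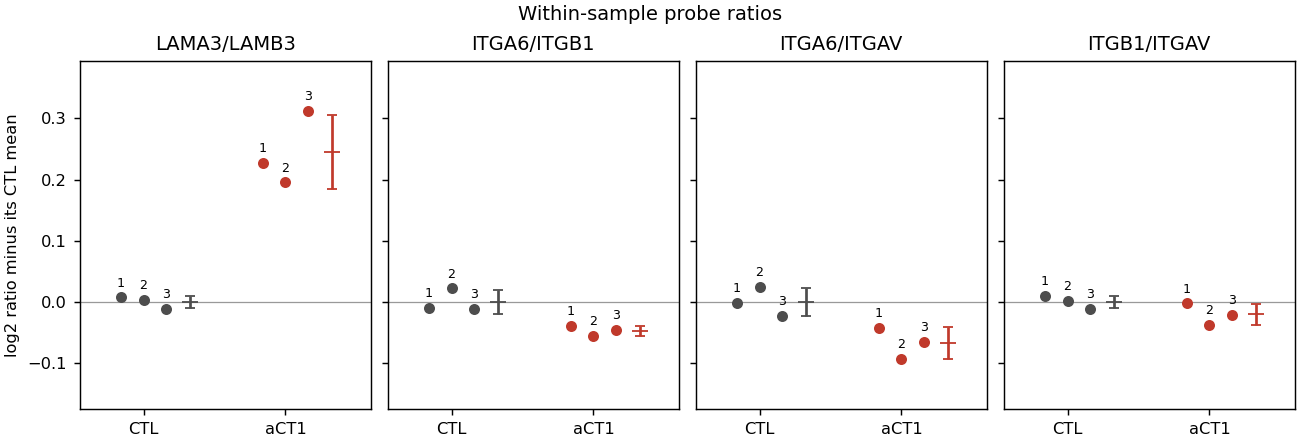
Log2 ratio of 2 probes within each sample, minus the mean of the CTL samples (vertical axis), for LAMA3/LAMB3, ITGA6/ITGB1, ITGA6/ITGAV and ITGB1/ITGAV, with samples numbered and the mean and SD of each group of 3 beside them. LAMA3/LAMB3 is higher in aCT1 by 0.24, ITGA6/ITGB1 is lower by 0.047 and ITGA6/ITGAV by 0.067, and ITGB1/ITGAV overlaps between groups.

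The correlation between the laminin chains differed in sign over all samples and within groups. LAMA3 and LAMB3 had a Pearson correlation of -0.60 over the 6 samples and 0.70 after the group means were subtracted. Samples with more LAMA3 in a group thus tended to have more LAMB3, although the group means differed in opposite directions. The order was not the same throughout, as aCT1 sample 1 had more LAMA3 but less LAMB3 than aCT1 sample 2. Both genes share the housekeeping factor of each sample, and the correlations describe 6 points.

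The genes whose log2 values most resembled each of the 4 genes over the 6 samples were sought among the other genes tested. For LAMA3 they were SFN (14-3-3σ, an epithelial cell cycle inhibitor), FOXM1 (a transcription factor of proliferating cells) and KIFC1 (a mitotic kinesin), with correlations of 0.97, 0.95 and 0.95, and 0.92, 0.93 and 0.88 after subtracting group means. For LAMB3 they were CDH2 (N-cadherin), FLNC (the actin crosslinker filamin C) and ID4 (a dominant-negative helix-loop-helix protein), with 0.99, 0.98 and 0.96, and 0.94, 0.97 and 0.93 within groups. For ITGA6 they were SLC39A6 (a zinc transporter), CDH2 and IL4R (an interleukin-4 receptor subunit), with 0.97, 0.91 and 0.90, and 0.94, 0.50 and 0.91 within groups. For ITGB1 they were SLC39A6, PIK3R1 (the p85α regulatory subunit of PI3K) and PTTG1 (securin), with 0.98, 0.94 and 0.93, and 0.94, 0.96 and 0.88 within groups. SLC39A6 headed the list of both integrin subunits. As ITGA6 and ITGB1 themselves had a correlation of 0.98 over these samples, their lists are not independent. Each correlation was the highest of many over 6 samples, and no test is attached to it. The 6 samples include the group difference by which the 4 genes were chosen, so genes that differ in the same direction are favored. The within-group values belong to genes already picked over the 6 samples and are no separate support.

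The other genes of cell adhesion were taken as fixed lists, with the 4 genes left out. The study's Adhesion and Migration set gives 38 further genes, all tested. Of these, 4 were higher and 2 lower at an unadjusted limma p under 0.05, and 0 had an adjusted limma p under 0.05. Over all 459 genes tested, 7.84% were higher and 3.49% lower at that unadjusted threshold. The median log2 difference of the 38 genes was 0.0087, against 0.014 for all genes tested. The lower genes were CDH2 (-0.13, unadjusted limma p 0.00879) and ICAM1, an adhesion receptor for leukocytes (-0.18, unadjusted limma p 0.0331). The higher genes were KRT7, a simple epithelial keratin (0.12, unadjusted limma p 0.0117), DSC2, a desmosomal cadherin (0.071, unadjusted limma p 0.0469), FREM2, a basement membrane protein (0.26, unadjusted limma p 0.0194), and the protease MMP11 (0.30, unadjusted limma p 0.0429). Their adjusted limma p-values lay between 0.325 and 0.414.

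In the list of hemidesmosome and basal attachment genes, 0 of the 3 genes tested had an unadjusted limma p under 0.05. CD44, a hyaluronan receptor, had a log2 difference of -0.029, KRT5, a basal keratin, 0.065, and CDH3, P-cadherin, -1.2e-05. KRT14, the usual partner of KRT5, had 21.5 normalized counts in CTL and was not among the genes tested. Among enzymes that process or cleave laminin-332, 0 of 3 genes tested had an unadjusted limma p under 0.05. MMP14, the membrane-type protease that can cleave laminin-332, had 60.9 normalized counts in CTL and a log2 difference of -0.11 (standard error 0.20). MMP3 and MMP7 had log2 differences of -0.34 and 0.31, with standard errors of 0.15 and 0.28, so these genes of few counts were measured less precisely than the laminin chains.

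Among the genes of integrin and growth factor signaling at the membrane, 0 of 8 had an unadjusted limma p under 0.05, with 6 higher and 2 lower in aCT1. The probes with the highest counts were CAV1, caveolin-1 (log2 difference 0.040), ERBB2, the HER2 receptor (0.024), and MET, the hepatocyte growth factor receptor (0.0051). Among other basement membrane and matrix ligands, FREM2 was 1 of 3 genes tested and the only one with an unadjusted limma p under 0.05. COL4A6, a basement membrane collagen chain, and THBS1, thrombospondin-1, had log2 differences of 0.038 and 0.013. COL7A1, the anchoring fibril collagen that binds laminin-332, had 36.1 normalized counts in CTL and was not tested.

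The cells were checked against markers. ERBB2 averaged 9316 and GRB7, its neighbor in the HER2 amplicon, 9849 normalized counts in CTL, and the summed level of the 4 measured markers of the HER2+ epithelial line ran from 31228 to 33306 in CTL and from 32342 to 35388 in aCT1. For basal epithelial markers, 4 of 5 were in the table, with sums from 6378 to 6531 in CTL and from 6471 to 6714 in aCT1, nearly all from KRT5 and CDH3, while KRT14 and KRT17 were near the low end. The 5 endothelial markers in the table summed to between 109 and 136 and the 3 leukocyte markers to between 100.2 and 122 over the 6 samples. The 3 fibroblast markers summed to between 277 and 354, most of it PDGFRA. Whether these levels have a part in the laminin and integrin differences was not tested.

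**Figure D4:**
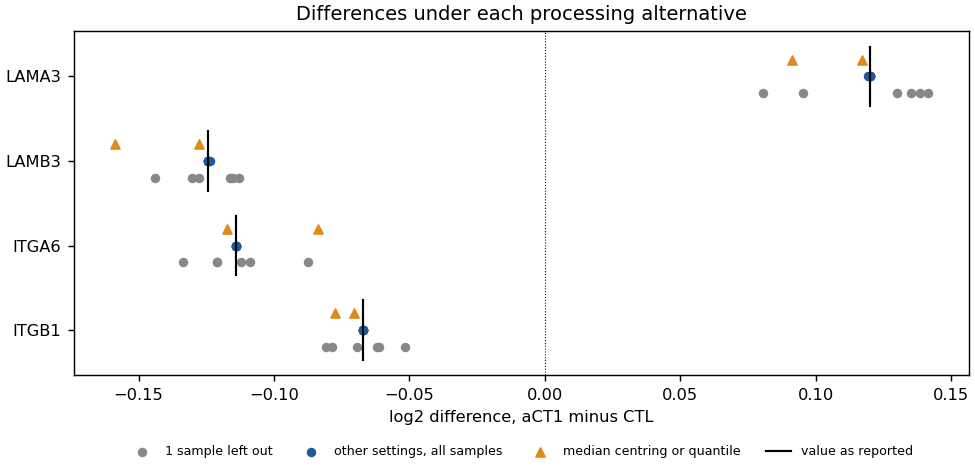
Log2 difference (aCT1 minus CTL, horizontal axis) of each gene as reported (black bar), with 1 sample left out (grey points), with median centring or quantile normalization (orange triangles) and with the other settings on all samples (blue points). LAMA3 stays above 0, from 0.080 to 0.14, and LAMB3, ITGA6 and ITGB1 stay below 0 in the 10 alternatives that can move the difference.

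Of the 15 alternatives run, 5 (a mean count of at least 50, all genes of the table, a variance trend, no moderation and the replicate block) cannot move a gene's log2 difference, and in the other 10 each of the 4 genes kept its direction. LAMA3 ranged from 0.080 to 0.14 on the log2 scale, LAMB3 from -0.16 to -0.11, ITGA6 from -0.13 to -0.084 and ITGB1 from -0.081 to -0.052. As the direction was known when the genes were chosen, this describes the size of the differences.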

How the data were processed

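RNA of 6 JIMT-1 samples (3 CTL, 3 aCT1) was analyzed on the nCounter Breast Cancer 360 panel. Per the methods, the authors normalized probe counts to housekeeping genes in nSolver 4.0. They deposited 758 genes as a linear normalized signal and as log2 values, which are the log2 of that signal. A background subtraction is not given in the sources used here. Each linear value is a whole multiple of 1 factor per sample (0.979 to 1.02), none farther than 5.23e-06 from a whole number. Counting errors and the sample totals were taken from those multiples, which entered no comparison of the groups. Genes tested were the 459 that the study analyzed. limma 3.58.1 in R 4.3.3 was fitted on the deposited log2 values. Its p-values were two-sided, with Benjamini-Hochberg adjustment over the 459 genes and a threshold of 0.05. The fit was also run on simulated counts with the same dispersion for every gene. The spread of the measured genes varies, so that run does not show how well the p-values hold here. No p is given for LAMA3, LAMB3, ITGA6 and ITGB1. The genes, lists and tests were chosen with earlier results of these data known. Named genes were the 4 genes, other laminin chains and integrin subunits tested, genes of the fixed lists with an unadjusted p under 0.05 (or the 3 with the most counts), and the 3 genes most correlated with each of the 4. Some genes of these lists are not reported here and were left out of the lists' counts and the correlations. Alternatives were median centring, quantile normalization, pseudocounts of 1 and 10, a mean count of at least 50, all 758 genes, a variance trend, no moderation, the replicate number as a block, and each sample left out. With 3 samples against 3, an exact permutation test cannot go below 0.1.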

Additional observations from a re-analysis of the deposited data

How the results depend on the processing

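With quantile normalization, the log2 difference of LAMB3 was -0.16 and that of the ITGA6/ITGB1 log2 ratio was -0.0063. Of the fixed lists together, 4 genes were higher and 2 lower at an unadjusted p under 0.05. The higher genes numbered 6 with the replicate block, 2 with median centring, quantile normalization or all genes of the table, and from 1 to 4 with 1 sample left out (2 without CTL replicate 1 or 3, 1 without CTL replicate 2). The lower genes numbered 5 with quantile normalization, 4 with the replicate block and 1 with all genes of the table or without moderation, and from 1 to 4 with 1 sample left out (1 without CTL replicate 1, 4 without aCT1 replicate 1). Genes with an adjusted p under 0.05 numbered 1 (CPA3) over the whole table and 1 (SFRP1) with a variance trend. The cause was not tested. The share of higher genes among those with an unadjusted p under 0.05 was 69.2%, and 55.8% with median centring, 48.5% with quantile normalization (33 higher, 35 lower) and 48.6% without aCT1 replicate 2. With the replicate block 47 genes had an unadjusted p under 0.05, against 52. Same-numbered samples deviated from their group means with correlations of -0.014, 0.192 and -0.154. The labels name no shared batch, and these correlations cannot show whether one was shared. The count tests with edgeR and DESeq2 were not run.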
